A study of Mus musculus with 24 samples.

Results

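The interleukin-1 family and its receptors were followed through mouse pancreatic tumors by 9 genes: the ligands Il1a, Il1b, Il18 and Il33, the antagonist Il1rn, the receptors Il1r1, Il18r1 and Il1rl1, and the decoy receptor Il1r2. They were taken by symbol from the 32285 genes of a single-cell RNA matrix, and all 9 were found. Tumors were grown under the skin of male C57BL/6 mice from Panc02, a mouse pancreatic adenocarcinoma line. The 8 treatments were PancVAX; PancVAX + Anti-PD-1; PancVAX + Anti-CTLA-4; PancVAX + Anti-PD-1 + Anti-CTLA-4; Anti-PD-1; Anti-CTLA-4; Anti-PD-1 + Anti-CTLA-4; and the isotype control. PancVAX is a vaccine of peptides from mutated Panc02 proteins, given on days 12 and 19, at 50 ug of each peptide per the methods, with the adjuvant AddaVax and a STING agonist, with PBS in its place in the other mice. Anti-PD-1 was given from day 12 and anti-CTLA-4 on days 15 and 22, each at 100 ug, and tumors were taken on day 38. Cells of the mice of each treatment were pooled, with the number of mice not stated, and 2 libraries were made of each pool: 1 from the whole dissociated tumor and 1 after Percoll, a density gradient that enriches immune cells. The preparation was also the sequencing batch, so the effects of Percoll and of the batch cannot be told apart. All tumors descend from 1 transplanted line. With a treatment as 1 pool, p-values rest on the spread between pools that differ in the other agents. A comparison of 2 single treatments is the exception: its p-values rest on the 2 libraries of a treatment and hold no spread between pools. Fits over all genes also draw on other genes to estimate the spread.

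IL-1 alpha and IL-1 beta signal through the receptor encoded by Il1r1 and drive inflammation and the recruitment of neutrophils. The product of Il1rn occupies that receptor without signalling, and the product of Il1r2 binds IL-1 without signalling, so both act against it. IL-18, made largely by myeloid cells, acts through the receptor chain of Il18r1 on T and NK cells, and IL-33, an alarmin held in the nucleus of stromal and epithelial cells, acts through ST2, the product of Il1rl1, on mast cells, regulatory T cells and other cells. IL-1 beta and IL-18 are made as precursors that caspase-1 cuts, and RNA levels do not show that step.

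All the genes but Il18 and Il33 lie on chromosomes 1 and 2, with the receptor genes in a cluster. In GRCm38.p6 Il1r2 spans chr1:40084692-40125230, Il1r1 chr1:40222480-40316201, Il1rl1 chr1:40404864-40465418 and Il18r1 chr1:40465552-40500854. Il1rn spans chr2:24336860-24351491, Il1a chr2:129299609-129310186, Il1b chr2:129364569-129371164, Il18 chr9:50554700-50581841 and Il33 chr19:29925113-29960718. The 250 bases before the transcription start that RefSeq lists, which lies inside the span just given, are shown for Il1a, Il1b and Il1r2, which shared their highest level in neutrophils but moved apart in the comparisons below; they were taken from RefSeq on the same build, where all 9 genes had an entry. The capitals mark, on either strand, the TATA box TATAAA, the AP-1 motif TGANTCA and the PU.1 motif GAGGAA; the NF-kB motif (GGGA and CC with any 4 bases between) and the C/EBP motif TTGCNNAA were searched as well. The lines read 5′ to 3′ along the gene, from chr2:129309973-129310222, minus strand, chr2:129371140-129371389, minus strand and chr1:40085843-40086092, plus strand.
Il1a: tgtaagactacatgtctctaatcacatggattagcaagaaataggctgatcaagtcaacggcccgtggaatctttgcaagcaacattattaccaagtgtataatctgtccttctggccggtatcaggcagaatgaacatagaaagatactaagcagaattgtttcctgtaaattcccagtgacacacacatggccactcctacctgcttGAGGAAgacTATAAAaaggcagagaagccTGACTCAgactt
Il1b: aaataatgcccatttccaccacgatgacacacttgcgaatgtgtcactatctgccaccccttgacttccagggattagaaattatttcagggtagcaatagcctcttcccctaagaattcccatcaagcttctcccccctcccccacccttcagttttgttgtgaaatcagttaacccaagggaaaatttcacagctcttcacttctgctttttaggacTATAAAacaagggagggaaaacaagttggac
Il1r2: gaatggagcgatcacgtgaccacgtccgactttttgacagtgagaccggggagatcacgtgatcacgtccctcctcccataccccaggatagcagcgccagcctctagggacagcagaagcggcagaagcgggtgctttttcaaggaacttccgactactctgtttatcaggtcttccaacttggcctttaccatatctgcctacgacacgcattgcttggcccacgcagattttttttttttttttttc

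The Il1a window held the PU.1, TATA and AP-1 motifs at -41, -32 and -12 from the start, and the Il1b window held the TATA box at -31. None of the 5 motifs matched the Il1r2 window. Such matches are common: of 32851 mouse windows of 250 bases, 12.4% held the TATA box, 6.75% the AP-1, 23.3% the PU.1, 17.6% the NF-kB and 9.56% the C/EBP motif.

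The libraries held 77132398 to 176233225 UMIs (unique molecular identifiers, which count RNA molecules). The cell limits of the study (200 to 3000 genes, 1000 to 10000 UMIs, under 10% mitochondrial, no hemoglobin) kept 57357 of 144994 barcodes, and 1793 to 7413 cells a library. Cells were assigned to 11 gates when at least 3 listed markers of a single gate had a UMI; no member gene was a marker, and 7818 cells met no gate and 6396 met several. The gates held 6909 neutrophil, 14448 macrophage, 50 mast, 1481 stromal, 3318 tumor and 13216 T cells, besides 394 NK, 2449 B, 569 dendritic, 204 endothelial and 105 keratinocyte cells. The listed markers were highest in their own gate for 12 of 12 neutrophil, 10 of 12 macrophage, 10 of 10 mast and 13 of 13 T markers, but for only 8 of 10 stromal and 6 of 10 tumor markers, so the tumor gate is cells with keratins and other epithelial markers rather than a sure set of tumor cells. The libraries of 1 treatment shared 11 to 42 cell barcodes, and other library pairs shared 5 to 45. The Percoll library of PancVAX + Anti-PD-1 stood apart, with 7413 cells passed and 59 of the 105 keratinocyte cells. Levels below are CPM, the UMIs of a gene as counts per 1000000 UMIs of the gate; each molecule is counted once at its 5′ end, so levels of different genes can be set side by side without a length correction.

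Neutrophils held the highest level of 4 of the 9 genes: Il1b, Il1r2, Il1rn and Il1a. Over all libraries the neutrophil gate had 11049 CPM of Il1b, 6289 of Il1r2, 1596 of Il1rn and 776 of Il1a, so that the agonists and both genes that act against them were high in the same gate. Il18 was highest in macrophages, Il18r1 in NK and T cells, Il33 in stromal cells, Il1r1 in endothelial and stromal cells and Il1rl1 in mast cells. The heat map of levels by gate shows this division of ligands, decoy and receptors.

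**Figure D1:**
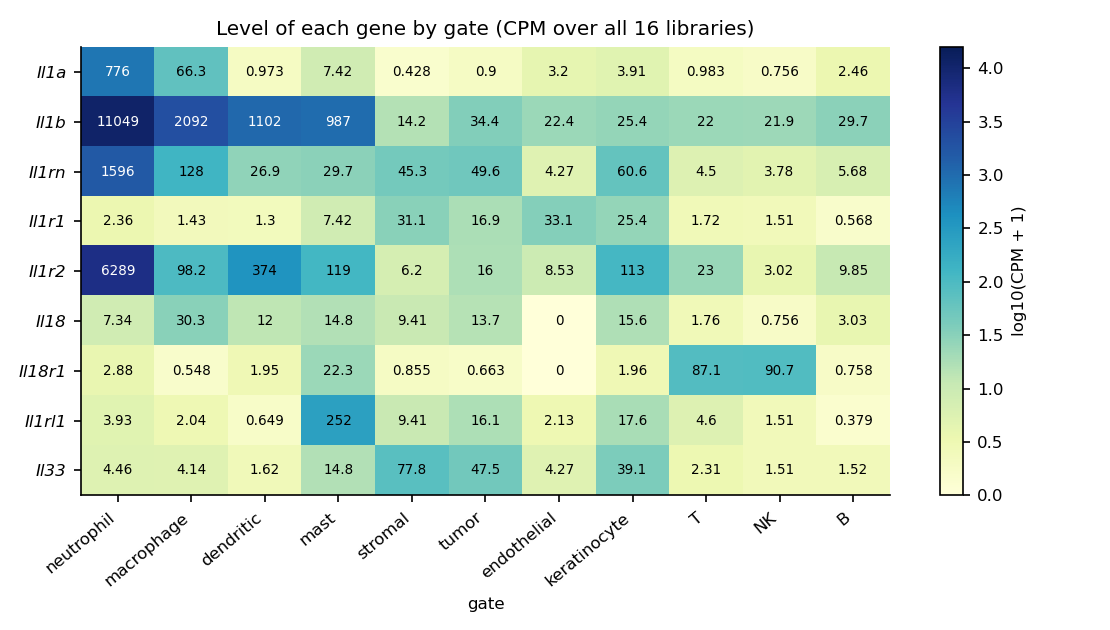
CPM of the 9 genes (rows) in the gates (columns) over all 16 libraries, with the color on a log10(CPM + 1) scale. Il1b, Il1r2, Il1rn and Il1a peak in the neutrophil column, from 776 to 11049 CPM, and the other 5 genes reach at most 252 CPM (Il1rl1 in mast cells).

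Il1b, the main secreted IL-1 agonist, ran from its lowest to its median and highest pool at 9331, 10331 and 13638 CPM in neutrophils. In macrophages the same values were 1823, 2053 and 2638 CPM. The pools of the gates did not overlap, and on the log2(CPM + 1) scale neutrophils were higher by 2.37 ± 0.24 (mean and SD over pools). Next in order among the gates tested, macrophages exceeded dendritic cells by 0.96 ± 0.38, and dendritic cells exceeded B cells by 5.14 ± 0.59. Mast cells, not tested, were at 987 CPM over all libraries, from 133 UMIs. Gates next to each other in the order of a gene's levels were compared by an exact two-sided sign-flip test over the 8 pools, adjusted over 72 pairs. The order leaves out mast and keratinocyte cells, which had too few cells in some pools. Of these, 15 pairs passed, each higher in 8 of 8 pools and at the smallest p the test can give (exact p = 0.0078, adjusted p = 0.0375); wherever a gate is said below to exceed another by a log2 value, it is 1 of these 15. Of the Il1b UMIs in cells within the limits, the macrophage gate held 41.6% (lowest library 28.0%, highest 62.0%) and the neutrophil gate 39.4% (lowest library 23.9%, highest 51.6%). Macrophages were more numerous and had a median of 3855 UMIs a cell, against 1474 in neutrophils, so the CPM difference is not a difference per cell. Without the upper cell limits the shares were 48.3% in the macrophage and 25.2% in the neutrophil gate.

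After each cell was thinned to 1000 UMIs, 95.4% (94.9 to 95.9%) of neutrophils had an Il1b UMI, with the exact binomial interval, which covers counting error only. The thinned share was 50.8% (49.9 to 51.6%) in macrophages, 28.8% (25.1 to 32.7%) in dendritic cells and 2.52% (2.26 to 2.80%) in T cells, which should lack the gene and whose share is read as background from free RNA. A thinned neutrophil carried a median of 9 Il1b UMIs, with 1 at the 10th and 25 at the 90th percentile.

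Il1a, the other agonist, was at 577, 731 and 961 CPM in the lowest, median and highest neutrophil pool. Macrophages were at 44.3, 60.6 and 107 CPM, and neutrophils were higher by 3.51 ± 0.28. In thinned cells 32.1% (31.0 to 33.3%) of neutrophils and 4.85% (4.51 to 5.21%) of macrophages had an Il1a UMI. Il1a and Il1b UMIs were found together in 31.2% of thinned neutrophils, where the product of the 2 shares is 30.7%.

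Il1rn, the receptor antagonist, stood at 1241, 1647 and 1831 CPM in neutrophil pools and at 88.1, 121 and 169 in macrophage pools, a difference of 3.62 ± 0.30. Macrophages exceeded the tumor gate by 1.47 ± 0.51, and the tumor gate was not shown to differ from stromal cells (0.25 ± 0.68 on the log2 scale, exact adjusted p = 0.77). Of the thinned neutrophils 58.2% (57.0 to 59.4%) had an Il1rn UMI, against 0.522% (0.406 to 0.660%) of T cells.

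Il1r2, the decoy receptor, had the largest neutrophil share of the 9 genes, with 70.7% of its UMIs (lowest library 51.2%, highest 80.4%) in that gate, and 55.7% without the upper cell limits. Neutrophil pools were at 5397, 6321 and 7378 CPM. Dendritic cells came next at 165, 379.5 and 560.3 CPM, lower than neutrophils by 4.22 ± 0.72. Dendritic cells exceeded macrophages by 1.83 ± 0.73, a call lost in the Percoll libraries alone (1.29) and under stricter gates (1.59), and macrophages at 68.0, 83.7 and 184 CPM exceeded T cells by 2.06 ± 0.32. In thinned neutrophils the decoy had a UMI in 92.6% (91.9 to 93.2%) of cells, and 88.9% had both Il1b and Il1r2, where the product of their shares is 88.4%. Il1b with Il1rn was found in 56.0% (product 55.6%) and Il1rn with Il1r2 in 54.5% (product 53.9%) of thinned neutrophils. Il1a was found with Il1r2 in 30.6% (product 29.8%) and with Il1rn in 22.0% (product 18.7%). The other 5 pairs hold Il1b or Il1r2, which nearly all of these cells had, so their shares have little room to leave the product.

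Il18 was low in macrophages, with a small spread, at 27.9, 30.7 and 32.6 CPM over the pools, or 30.4 ± 1.86 CPM (SD, n = 8). Macrophages exceeded the tumor gate by 1.16 ± 0.32 and held 58.0% of its UMIs (lowest library 24.9%, highest 71.6%). Without the upper cell limits macrophages held 22.8%, the tumor gate 19.5% and cells with both stromal and tumor markers 25.2%. Its receptor chain Il18r1 was at 63.5, 85.1 and 119 CPM in NK pools and 50.1, 80.0 and 123 in T pools, which overlapped (difference 0.15 ± 0.77 on the log2 scale, exact adjusted p = 0.95). T cells exceeded the next gate, neutrophils, by 4.44 ± 0.68. T cells held 83.6% of its UMIs (lowest library 73.4%, highest 91.1%) for Il18r1, or 65.3% without the upper cell limits, and 9.43% (8.93 to 9.94%) of thinned and 25.6% of unthinned T cells had a UMI, against 0.118% (0.0686 to 0.188%) of thinned macrophages.

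Among the gates, Il33 was highest in the stromal and tumor gates. Cells with both stromal and tumor markers are in neither gate. Over all libraries they were at 52.6 CPM, against 77.8 in the stromal and 47.5 in the tumor gate. Stromal pools were at 28.1, 87.6 and 106 CPM and tumor-gate pools at 35.0, 44.0 and 81.6; stromal cells were higher in 7 of 8 pools, but the difference of 0.68 ± 0.65 on the log2 scale did not pass (exact adjusted p = 0.14). The tumor gate exceeded macrophages by 3.34 ± 0.82. Only 6.82% (5.59 to 8.23%) of thinned stromal cells had an Il33 UMI.

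The receptors Il1r1 and Il1rl1 were low. Il1r1, the signalling IL-1 receptor, was at 19.9, 31.9 and 40.6 CPM in stromal pools, 11.3, 32.0 and 65.3 in endothelial pools and 11.9, 13.9 and 28.2 in tumor-gate pools. These 3 gates were not shown to differ from their neighbour in the order (exact adjusted p = 0.96 and 0.26), while the tumor gate exceeded neutrophils by 2.39 ± 0.56. So the gates with the most agonist RNA, neutrophils and macrophages, were at 2.36 and 1.43 CPM of the signalling receptor. Il1rl1, the IL-33 receptor, was at 252 CPM in mast cells, from 34 UMIs in 50 cells (exact Poisson interval 175 to 353 CPM, counting error only), with a UMI in 30.0% (17.9 to 44.6%) of thinned mast cells. Mast cells numbered 1 to 27 a pool and were not tested. Among the tested gates no neighbouring pair passed for Il1rl1; the tumor gate, at 5.58, 9.98 and 38.1 CPM, was above stromal cells by 0.97 ± 1.00 on the log2 scale in 7 of 8 pools (exact adjusted p = 0.099).

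The upper cell limits touched these genes unequally. The share of a gene's UMIs that lay in barcodes above 3000 genes or 10000 UMIs was 95.7% for Il1rl1, 92.3% for Il33, 92.3% for Il1r1, 81.3% for Il18, 69.4% for Il1rn, 36.5% for Il1b, 32.4% for Il18r1, 30.2% for Il1a and 21.7% for Il1r2. Without the upper limits 120419 barcodes remained, the tumor gate grew to 20244 cells, and its Il1rl1 level went from 16.1 to 33.6 CPM, from 25.0 to 52.3 over pools. Il33 went from 77.8 to 58.2 CPM in the stromal gate and from 47.5 to 25.6 in the tumor gate. Cells with both stromal and tumor markers are in neither gate. Without the upper limits they held more UMIs than any gate for Il1rn (22.3%), Il1r1 (31.9%), Il18 (25.2%) and Il33 (34.8%). The barcodes above the limits may hold large cells or several cells, which was not tested, and no doublet caller was run.

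Within the neutrophil gate, cells were divided into those with a Siglecf and no Retnlg UMI (1781) and those with a Retnlg and no Siglecf UMI (979). Siglecf marks a neutrophil state known from tumors, and Retnlg is a neutrophil gene of younger, circulating cells. Il1a was higher in the Siglecf cells, at 934 ± 207 against 321 ± 95.5 CPM (SD, n = 8) and in 8 of 8 pools (log2 fold change 1.02, SE 0.13, adjusted p = 2.6e-08, edgeR). It was the only one of the 4 members tested to be called, where a call needs an edgeR adjusted p under 0.05 and a log2 change over 0.5; 46.8% of all genes tested were called in this comparison. Il1r2 was also higher in 8 of 8 pools, at 7629 ± 786 against 4545 ± 571 CPM, but its fitted change fell short of the size (log2 fold change 0.27, SE 0.06, adjusted p = 0.00043, edgeR). The direction of Il1b depended on the scaling: in CPM it was 10955 in Siglecf and 10193 in Retnlg cells, higher in 7 of 8 pools, whereas the edgeR fit, which scales libraries by TMM, gave a log2 fold change of -0.38 (SE 0.06). The Il1rn difference depended on the scaling too. In CPM Il1rn was at 1621 against 1179, higher in 8 of 8 pools, whereas the edgeR fit gave a log2 fold change of -0.03 (SE 0.09). Il1rn was not called. Il18, too low to be tested, was at 2.95 ± 2.75 against 21.3 ± 8.93 CPM and lower in the Siglecf cells of 8 of 8 pools.

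Of the other genes of the pathway (receptor chains, the IL-36 ligands, inflammasome and signalling genes, 29 in the matrix), 17 were tested between these cells. Of these 1 was higher and 7 were lower with Siglecf. Over all genes tested 1931 of 4124 were called, so the number of calls does not set the pathway apart. Lower were Nfkbiz, an inducible regulator of NF-kB target genes (log2 fold change -1.36), Il1f9, which encodes IL-36 gamma (-2.15), Il1rap, the shared co-receptor (-1.80), the inflammasome sensor Nlrp3 (-1.10) and the inflammatory caspase Casp4 (-1.35).

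Within the macrophage gate, 302 cells had a Ccr2 UMI without C1qa, C1qb or C1qc, and 12443 had a C1q UMI without Ccr2. Ccr2 marks monocytes newly arrived from blood, and C1q marks resident or mature macrophages. The Ccr2 cells were higher in Il1b, at 3434 ± 879 against 1959 ± 309 CPM (SD, n = 8) and in 7 of 8 pools (log2 fold change 0.68, SE 0.07, adjusted p = 5.1e-17, edgeR). They were higher in Il1r2, at 228 ± 168 against 82.3 ± 39.7 CPM (log2 fold change 1.27, SE 0.14, adjusted p = 2.4e-16), and in Il1rn, at 242 ± 156 against 105 ± 27.4 CPM (log2 fold change 0.97, SE 0.14, adjusted p = 1.8e-10), each in 6 of 8 pools; the Il1rn call was lost with DESeq2 at a log2 fold change of 0.91. Il1a went the other way, at 25.7 ± 17.3 in Ccr2 against 70.2 ± 26.2 in C1q cells, and was higher with Ccr2 in 1 of 8 pools (log2 fold change -1.59, SE 0.24, adjusted p = 1.5e-09). In these fits edgeR estimates the spread with all genes together, so such small p-values do not measure how well the 8 pools agree. The Ccr2 sums held 21 to 52 cells a pool. The plot of the macrophage gate by pool shows Il1a set apart from the other neutrophil-high genes. In this comparison 26.2% of all genes were called and the median log2 change of all genes was -0.21, against 3 higher and 1 lower of the 8 members tested. The share of thinned cells with an Il1b UMI was 70.9% (65.4 to 75.9%) with Ccr2 and 49.0% (48.1 to 49.9%) with C1q.

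**Figure D2:**
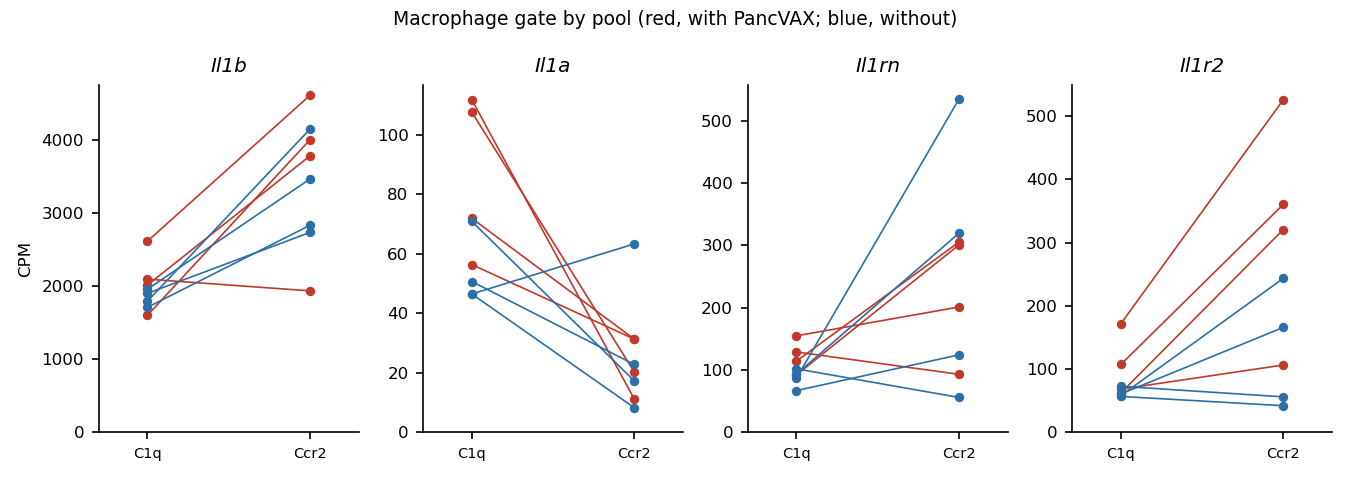
CPM of Il1b, Il1a, Il1rn and Il1r2 in C1q and Ccr2 cells of the macrophage gate, 1 line a pool (red with PancVAX, blue without). Il1b rose from C1q to Ccr2 cells in 7 of 8 pools and Il1a in 1 of 8.

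Of 24 other pathway genes tested, 4 were higher and 6 lower in Ccr2 cells. Over all genes tested 2936 of 11212 were called, 1062 higher and 1874 lower. Il18bp, the secreted inhibitor of IL-18, was lower by the most (-2.92 on the log2 scale), with Nfkbiz (-0.76) and the DNA sensor Aim2 (-1.14), while Nlrp3 (0.59) and Casp4 (0.80) were higher.

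T cells were divided by Foxp3, the factor of regulatory T cells (528 cells), Cd4 without Foxp3 (1034 cells) and Cd8a or Cd8b1 without Cd4 (9606 cells). Among T cells Il1rl1 was highest in the Foxp3 cells, at 4.24, 52.7 and 108 CPM in the lowest, median and highest pool, against 3.41, 11.8 and 21.3 in other Cd4 cells. It was higher in 8 of 8 pools (log2 fold change 2.10, SE 0.26, adjusted p = 1.6e-06, edgeR). Il1r2, the decoy, was at 118, 189 and 286 CPM in Foxp3 pools and 67.3, 104 and 213 in other Cd4 pools, which overlapped, and was higher in 6 of 8 (log2 fold change 0.77, SE 0.22, adjusted p = 0.016, edgeR). Il18r1 was lower in Foxp3 cells, at 92.1 ± 24.5 CPM (SD, n = 8) against 125 ± 37.8 CPM, and higher in 1 of 8 pools (log2 fold change -0.60, SE 0.14, adjusted p = 0.003, edgeR). DESeq2 called 1 of these 3, Il1rl1. The Il1r2 call was also lost without the pool of PancVAX + Anti-PD-1, of PancVAX + Anti-CTLA-4 or of Anti-PD-1, at log2 fold changes of 0.52, 0.70 and 0.64. Over all genes 15.3% were called.

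All 3 of these genes were lower in Cd8 than in other Cd4 cells, and none was higher in any pool. Il1r2 was at 5.89 ± 1.93 CPM (SD, n = 8) in Cd8 cells (log2 fold change -4.04, SE 0.21, adjusted p = 1.5e-14, edgeR). Il1rl1 was at 1.21 ± 0.522 CPM (log2 fold change -3.02, SE 0.41, adjusted p = 2.2e-06) and Il18r1 at 74.8 ± 27.6 CPM (log2 fold change -0.67, SE 0.10, adjusted p = 1e-05). They were 3 of the 8 members tested, with none higher, and 12.8% of all genes were called. In thinned cells Il1r2 had a UMI in 11.4% (8.78 to 14.4%) of Foxp3, 5.03% (3.78 to 6.54%) of other Cd4 and 0.645% (0.495 to 0.827%) of Cd8 cells. Over all libraries Foxp3 cells had 204 CPM of Il1r2 and 22.0 of Il1b, and neutrophils 6289 and 11049. In neutrophils of the Percoll libraries alone the ranges of these genes overlapped, and the median of Il1r2 was above that of Il1b. The plot of T cell subsets shows the order for each pool.

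**Figure D3:**
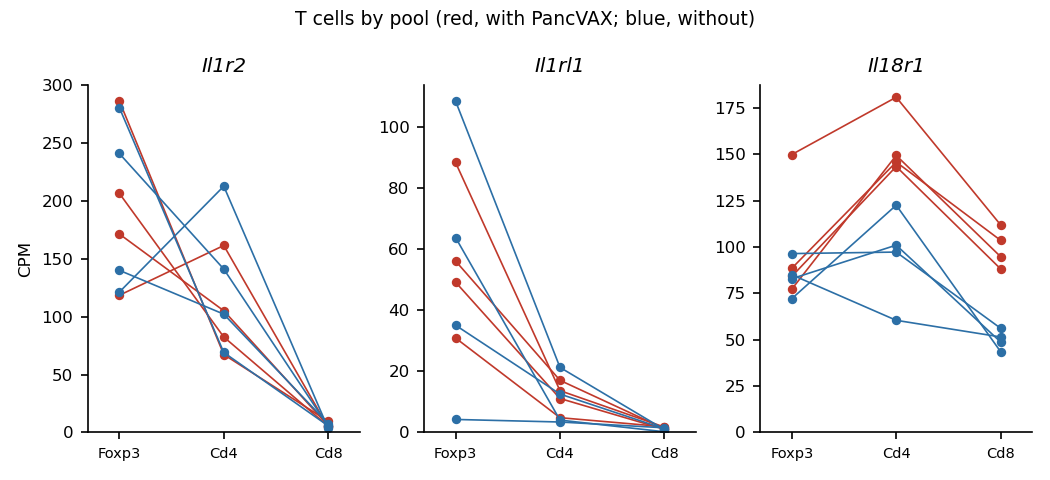
CPM in Foxp3, other Cd4 and Cd8 T cells, 1 line a pool (red with PancVAX, blue without), on linear axes from 0. Il1rl1 and Il1r2 lie lowest in the Cd8 cells of all 8 pools, and Il1rl1 is higher in Foxp3 than in other Cd4 cells in all 8.

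Of the other pathway genes, Sigirr, an inhibitory receptor of the family (0.56), was higher in Foxp3 cells, and Il18rap, the second chain of the IL-18 receptor (-1.01), and the signalling adaptor Tab2 (-0.53) were lower, of 13 tested. Over all genes tested there 820 of 5364 were called. Between Cd8 and other Cd4 cells 1 of 19 was higher, the kinase Irak2 (0.99), and 5 were lower, among them Nfkbiz (-1.69), Casp4 (-1.28), the IL-36 receptor Il1rl2 (-2.37) and Casp1 (-0.54), the caspase that cuts the IL-1 beta and IL-18 precursors. Over all genes tested between them 1325 of 10368 were called, 539 higher and 786 lower.

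PancVAX was tested over the 8 pools, 4 with and 4 without it, with both antibodies as terms. In T cells Il18r1 rose: the pools of PancVAX, PancVAX + Anti-PD-1 + Anti-CTLA-4, PancVAX + Anti-PD-1 and PancVAX + Anti-CTLA-4 stood at 100.5, 95.0, 123 and 109 CPM. The pools of Anti-PD-1 + Anti-CTLA-4, Anti-CTLA-4, Anti-PD-1 and the isotype control stood at 50.1, 55.2, 65.1 and 58.7 CPM. The groups did not overlap (log2 fold change 0.82, SE 0.09, adjusted p = 0.00018, edgeR), at 107 ± 12.1 CPM (SD, n = 4) with and 57.3 ± 6.30 CPM (SD, n = 4) without the vaccine. Within the whole tumor libraries the ranges were 110.2 to 133 CPM with and 52.2 to 67.8 without, and within the Percoll libraries 84.5 to 115 and 47.6 to 64.9. In Cd8 cells alone the pools ranged over 88.2 to 112 CPM with and 43.5 to 56.2 without (log2 fold change 0.92, SE 0.10, adjusted p = 6.7e-05, edgeR). Median UMIs per cell were lower with PancVAX in both divisions of the Cd8 cells given below, and the part of depth was not tested. In Foxp3 cells the log2 fold change of Il18r1 was 0.26 (SE 0.25, adjusted p = 0.84, edgeR). NK pools, which were not fitted, stood at 63.5 to 94.8 CPM with and 72.1 to 119 without PancVAX, lower on average with it. In other Cd4 cells the change missed the threshold (log2 fold change 0.69, SE 0.18, adjusted p = 0.067, edgeR). It was called there without the low-count filter, on 16 libraries, in Percoll libraries alone and under 5% mitochondrial, and whether it differed from that in Cd8 cells was not tested. Both Il18r1 calls held in 18 of 18 alternative analyses, at log2 fold changes of 0.75 to 0.88 in T and 0.85 to 0.98 in Cd8 cells. The plot of Il18r1 by library shows both gates.

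**Figure D4:**
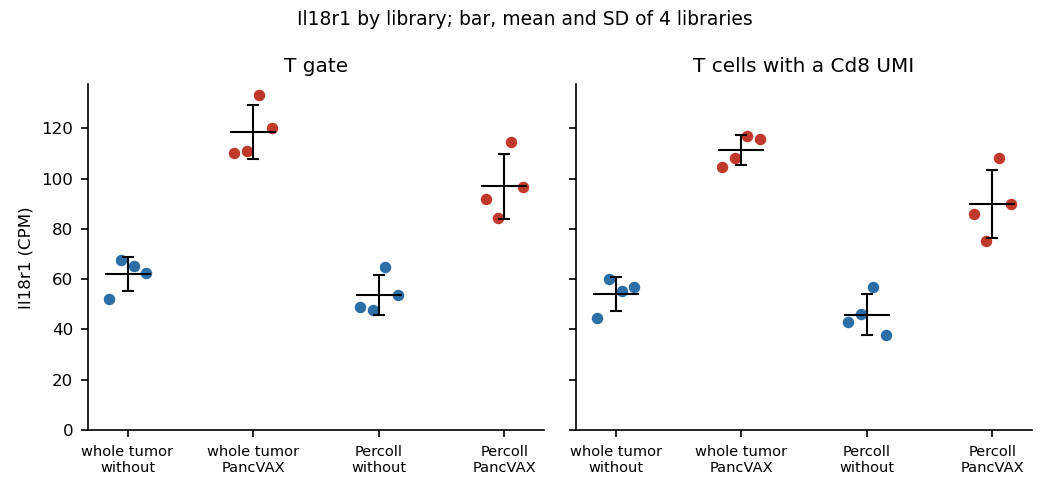
Il18r1 CPM in each library for the T gate and its Cd8 cells, by preparation and vaccine, with the mean and SD of 4 libraries. In each preparation every library with PancVAX (red) lies above every library without it (blue).

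The members called in T cells were 3 of the 9 tested, all higher, where 9.57% of all genes were called; in Cd8 cells they were 3 of 6 against 11.7%. Besides Il18r1 they were Il1b, at 17.4, 24.7, 38.4 and 22.9 CPM with the vaccine and 13.9, 15.4, 9.90 and 18.1 CPM without in the same pool order (log2 fold change 0.79, SE 0.23, adjusted p = 0.038, edgeR), and Il18, at 1.92 to 3.24 against 0.519 to 0.927 CPM (log2 fold change 1.52, SE 0.35, adjusted p = 0.012, edgeR). In Cd8 cells the log2 fold change was 0.84 for Il1b and 2.32 for Il18. Il18 reached the level of the low-count filter, 1.63 CPM in T and 2.08 in Cd8 cells, in 4 and 2 of the pools with PancVAX and in 0 without, so it entered both tests only through the group where it was high and its place in the counts of 3 supports nothing; with no filter the log2 fold changes were 1.52 and 2.32, and both were still called. Among the gates Il1b was highest in neutrophils and Il18 in macrophages. Without the upper cell limits macrophages held 22.8% of the Il18 UMIs, the tumor gate 19.5% and cells with both stromal and tumor markers 25.2%. Summed neutrophil and macrophage markers in the T gate moved with both genes, and markers of other gates are not given. The neutrophil markers were at 16.1 to 29.0 CPM with and 9.27 to 12.1 without PancVAX (11 of 12 higher with it, 1 at 0). The macrophage markers were at 213 to 256.04 and 128 to 165 CPM (7 of 12 higher, 0 at 0). In Cd8 cells the neutrophil markers were at 14.8 to 31.3 and 4.92 to 8.03 CPM and the macrophage markers at 198 to 244 and 106 to 142. In other Cd4 cells Il1b and Il18 were not tested. There the neutrophil markers were at 10.5 to 18.5 CPM with and 0 to 74.9 without PancVAX, and the macrophage markers at 229 to 279 and 149 to 283. The part of these markers in the rise of Il1b and Il18 was not tested. The Il1b call in T cells was lost in the Percoll libraries alone (log2 fold change 0.43), under stricter gates (0.69), and without the pool of PancVAX + Anti-PD-1 (0.49), Anti-PD-1 (0.53), Anti-PD-1 + Anti-CTLA-4 (0.75), PancVAX + Anti-CTLA-4 (0.81) or PancVAX + Anti-PD-1 + Anti-CTLA-4 (0.83). The Il18 call in T cells, from 93 UMIs, was lost with DESeq2 (1.56). In Cd8 cells the Il1b call was lost in the Percoll libraries alone (0.58) and under stricter gates (0.70). Without the pool of PancVAX alone, 6 members were called in T cells. The share of all genes called in that fit is not given here, so this count is no result about the members.

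The Cd8 cells were then divided, after the data were seen, by whether they had a UMI of Pdcd1 or Havcr2, which encode the checkpoint receptors PD-1 and TIM-3. Il18r1 was at 93.8 ± 11.7 CPM with and 52.5 ± 8.34 without PancVAX (SD, n = 4 pools each) among cells with such a UMI. Among cells with neither it was at 107 ± 11.0 and 43.8 ± 9.68 CPM. These values have no test, since Il18r1 already separated the pools over the same cells. Depth moved with both divisions: the median UMIs per cell of the pools were 3516 to 4081 with and 4680 to 5548 without PancVAX among cells with such a UMI, and 2999 to 3171 and 3493 to 4348 among the rest.

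The partner chain of the IL-18 receptor rose as well. Of 21 other pathway genes tested in T cells, 3 rose with PancVAX and none fell: Il18rap (log2 fold change 0.62, SE 0.08), Il18bp (0.72, SE 0.17) and Nfkbiz (0.97, SE 0.13). The same 3 were called in Cd8 cells, of 20 tested, at 0.71, 0.93 and 1.43; these are largely the same cells as the T gate. The counts stand beside 9.57% and 11.7% of all genes called, so neither sets the pathway apart. Il18bp was higher in C1q than in Ccr2 macrophages, and the part of the macrophage markers that rose in the T gate in its change was not tested. The direct comparison of PancVAX with the isotype control, which uses some of the same libraries, called Il18r1 alone among the members, at a log2 fold change of 0.76 (SE 0.12, adjusted p = 0.00058, edgeR) in T and 0.95 (SE 0.15, adjusted p = 0.00034, edgeR) in Cd8 cells, where 5% and 6.69% of all genes were called. Each of these treatments is taken as 1 pool, so the p-values take its libraries as replicates and hold no spread between pools. The same limit applies below where both antibodies are added to PancVAX. The T gate call was lost when the preparation was left out of the fit (log2 fold change 0.75). With it Il18rap and Nfkbiz were called in both gates.

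Of the 8 gates and T cell subsets fitted, the other 6 had no member called for PancVAX, and NK, B, dendritic and endothelial cells were not fitted. In the order neutrophil, macrophage, stromal, tumor, other Cd4 and Foxp3 cells, 5, 8, 6, 7, 2 and 3 members were tested, and 0.0125%, 0.136%, 0.0643%, 0.00952%, 1.53% and 0.224% of all genes were called. Neutrophil Il1b was at 11938, 10216, 9331 and 13638 CPM with PancVAX and 10445, 9616, 9690.1 and 11809 CPM without, and the groups overlapped (log2 fold change 0.06, SE 0.13, adjusted p = 0.97, edgeR). In macrophages 6 of the 8 had an unadjusted p under 0.05 in edgeR and DESeq2 called 1, Il33. Among the 6 was Il1r1, which reached the low-count filter only in pools with PancVAX. The share of all genes at an unadjusted p under 0.05 is not given, here or for such counts below. In edgeR 1 macrophage member was called without the pool of PancVAX or of Anti-CTLA-4, and 1 tumor-gate member without the pool of PancVAX + Anti-PD-1 + Anti-CTLA-4. The macrophage log2 fold changes were 0.60 for Il1a (adjusted p = 0.15), 0.37 for Il1rn (adjusted p = 0.11), 0.60 for Il1r2 (adjusted p = 0.12) and 1.41 for Il33 (adjusted p = 0.074), all edgeR. Set against the isotype control alone, PancVAX gave -0.38 for Il1a, -0.03 for Il1rn, -0.12 for Il1r2 and 1.92 for Il33. Il33 was low in these macrophages, at 4.07 to 9.01 CPM with and 1.38 to 3.24 without PancVAX. Over the pools its log2 fold change was similar in T (1.39, adjusted p = 0.050, edgeR) and Cd8 cells (1.29, adjusted p = 0.056, edgeR), where only pools with PancVAX reached the low-count filter. In neutrophils, where it was not tested, Il33 was at 3.76 to 7.33 and 0.852 to 3.73 CPM. In neutrophils the groups overlapped for Il1r2 and Il1rn as well: with and without PancVAX neutrophil Il1r2 ranged over 5591 to 7378 and 5397 to 6622 CPM, and Il1rn over 1644 to 1831 and 1241 to 1651. Neutrophil Il1a, at 741 to 961 CPM with and 577 to 721 without, did not overlap but was not called (log2 fold change 0.34, SE 0.10, adjusted p = 0.75, edgeR). Macrophage Il18, at 29.3 to 32.2 and 27.9 to 32.6 CPM, had a log2 fold change of 0.00 (SE 0.08). Il33 ranged over 68.4 to 106 and 28.1 to 90.7 CPM in stromal and 39.8 to 81.6 and 35.0 to 53.5 in tumor-gate pools (log2 fold changes 0.40, SE 0.25, and 0.27, SE 0.18). The median log2 fold change of the members tested was 0.09 in neutrophils, 0.60 in macrophages, 0.32 in stromal, 0.46 in tumor and 0.79 in T cells, where that of all genes tested was 0.0022, -0.00093, 0.0063, 0.008 and 0.013. These medians are a description only, since Il18 and Il33 in T cells, Il1r1 in macrophages and Il1rl1 in stromal cells reached the low-count filter only in pools with PancVAX. The ratio of antagonist to agonist, Il1rn over Il1b UMIs, differed with PancVAX by a log2 ratio of 0.15 in neutrophils (exact permutation p = 0.51) and 0.28 in macrophages (exact permutation p = 0.11). The neutrophil ratio was 0.0609 to 0.0969 in whole tumor and 0.167 to 0.291 in Percoll libraries, and within them the log2 ratio differed by 0.20 (exact permutation p = 0.29) and 0.30 (exact permutation p = 0.17).

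In the main fits the checkpoint antibodies moved none of the 9 genes past the threshold. This depended on the processing. Without the low-count filter members were called for anti-PD-1 in stromal and tumor cells and for anti-CTLA-4 in tumor cells, as counted in the last section. The share of all genes called without that filter is not given, so these calls are no result about the members. For anti-PD-1 the calls over all genes, in the order neutrophil, macrophage, stromal, tumor, T, Cd8, other Cd4 and Foxp3 cells, were 0%, 0%, 0.246%, 0.0571%, 0%, 0%, 0.0386% and 0.0748%; of 46 member tests in edgeR 8 had an unadjusted p under 0.05, and DESeq2 called 0. For anti-CTLA-4 they were 0%, 0%, 0%, 0.0286%, 0%, 0%, 0.0579% and 0.175%, with 3 of 46 at an unadjusted p under 0.05 in edgeR and 0 called by DESeq2. Il18r1 in T cells had a log2 fold change of 0.02 (SE 0.09) for anti-PD-1 and -0.17 (SE 0.09) for anti-CTLA-4. Neutrophil Il1b had -0.23 (SE 0.13) and 0.08 (SE 0.13). Tumor-gate Il1b had larger changes that were not called, at 1.79 (SE 0.37, adjusted p = 0.19, edgeR) and 1.40 (SE 0.38, adjusted p = 0.43, edgeR). Adding both antibodies to PancVAX called no member in 39 tests in edgeR (5 at an unadjusted p under 0.05, 0 by DESeq2), where 0.119%, 0.135%, 0%, 0.781%, 0.534%, 0.366%, 0.0506% and 0.0367% of all genes were called in the same gate order. Of the pathway list, 1 gene was called there, Nfkbiz in the tumor gate (0.80). In the remaining gates PancVAX against the isotype control called no member either: 0% of all genes in neutrophils, 0.018% in macrophages, 0.0476% in stromal, 0.116% in tumor, 0.784% in other Cd4 and 0% in Foxp3 cells.

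In neutrophils the members called differed between the preparations, with less Il1b and more Il1r2 and Il1rn after Percoll. Neutrophil Il1b was at 13513, 14854 and 17715 CPM in the lowest, median and highest whole tumor library and 5957, 7663 and 10254 in the Percoll libraries, without overlap (log2 fold change -0.93, SE 0.10, adjusted p = 2.7e-06, edgeR with the treatment as block). Il1r2 went the other way, from 2829.7, 4044 and 4989 CPM in whole tumor to 6299, 8186 and 9128 in Percoll libraries, again without overlap (log2 fold change 1.05, SE 0.10, adjusted p = 4e-07, edgeR). Il1rn was at 823, 1213 and 1488 CPM in whole tumor and 1439, 1833 and 2215 in Percoll libraries, with a slight overlap (log2 fold change 0.67, SE 0.10, adjusted p = 5.8e-05, edgeR). Il1a differed by less than the size limit (log2 fold change 0.41, SE 0.12, adjusted p = 0.024, edgeR). These were 2 higher and 1 lower of 4 members tested, where 10% of all genes were called. The plot of both preparations shows Il1b lower and Il1r2 higher after Percoll in every treatment.

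**Figure D5:**
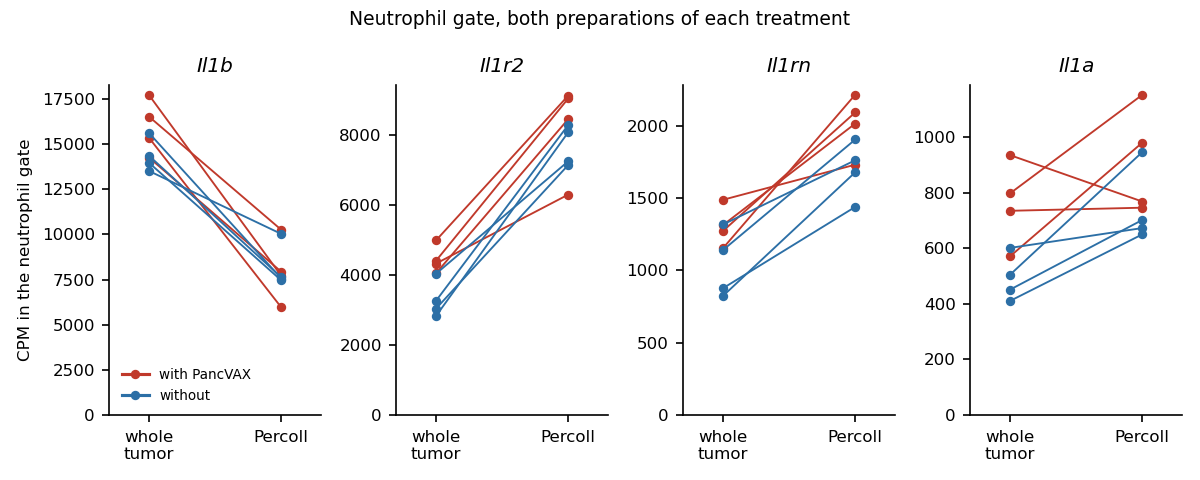
CPM in the neutrophil gate of the whole tumor and Percoll library of each treatment, joined by a line (red with PancVAX, blue without). Il1b is lower and Il1r2 is higher after Percoll in all 8 treatments.

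The same held in each neutrophil subset. In Siglecf cells Il1b was at 12888 to 17539 CPM in whole tumor and 6324 to 11234 in Percoll libraries, and Il1r2 at 3239.9 to 5494 and 7927 to 10678. In Retnlg cells Il1b was at 12409.9 to 15974 and 6107 to 10021 CPM and Il1r2 at 1846 to 3683 and 4199 to 6649. RNA quality moved with it: the mitochondrial share of neutrophil UMIs was 3.44% in whole tumor and 0.845% in Percoll libraries, at median depths of 1453 and 1489 UMIs a cell, and its part in the result was not tested. The ratio of Il1rn to Il1b UMIs in neutrophils was 0.0609 to 0.0969 in whole tumor and 0.167 to 0.291 in Percoll libraries, while in macrophages it was 0.0503 to 0.0749 and 0.0458 to 0.0863.

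Of 21 other pathway genes tested in neutrophils, 6 were higher after Percoll and none lower, among them Irak2 (log2 fold change 1.00), Il1f9 (0.66), Nlrp3 (0.61), the signalling inhibitor Tollip (0.67) and the inhibitory kinase Irak3 (0.72). Over all genes tested in neutrophils 674 of 6721 were called, 408 higher and 266 lower. In the other gates the pathway calls for Percoll were Casp4 in macrophages (0.53), Nfkbiz in stromal cells (0.65), Irak2 in T (0.58) and Cd8 cells (0.60), and the kinase Irak4 in Cd8 cells (-0.51). In macrophages 2 of 7 members were called, Il1r2 (41.3 to 119 against 89.6 to 249.8 CPM, log2 fold change 1.15, adjusted p = 2.6e-06, edgeR) and Il1a (0.52, adjusted p = 0.015, edgeR), both higher, with 3.34% of all genes called. The Il1a call was lost without the pool of PancVAX + Anti-PD-1 + Anti-CTLA-4, of PancVAX + Anti-CTLA-4 or of the isotype control, at 0.48, 0.42 and 0.47. Macrophage Il1b, unlike neutrophil Il1b, was not called (log2 fold change 0.25, SE 0.10, adjusted p = 0.13, edgeR); the difference between the gates was not tested. No member was called in stromal (1.61% of all genes), tumor (1.32%), T (5.13%), Cd8 (4.81%), other Cd4 (2.43%) or Foxp3 cells (1.14%). Il18r1 in T cells fell by 0.27 on the log2 scale, which passed the p but not the size limit (adjusted p = 0.0023, edgeR). Over all cells, without gates, 3 of 9 members were higher after Percoll, Il1r2 (1.43), Il1rn (0.73) and Il1a (0.68), with 6.46% of all genes called. Of the pathway genes, Il1f9 (0.95), Irak2 (0.77) and Nlrp3 (0.65) were higher and Nlrc4 (-0.56) was lower over all cells. Neutrophils were 10.2% of the whole tumor and 13.8% of the Percoll cells, and T cells 21.7% and 24.4%. Macrophages were 29.3% and 21.2%, and the tumor gate 5.09% and 6.46%, so not every immune gate had a larger share after Percoll. The parts of the neutrophil share and of the levels within neutrophils in the difference over all cells were not separated. Without the upper cell limits Il1r2 alone kept its call, with Il1rn at 0.29 and Il1a at 0.49. The Il1a call over all cells was also lost without the pool of PancVAX + Anti-PD-1 + Anti-CTLA-4 (0.58), isotype control (0.59), Anti-PD-1 (0.62), PancVAX + Anti-CTLA-4 (0.65) or Anti-CTLA-4 (0.68).

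The genes whose levels followed each member most closely were found by Pearson r of log2(CPM + 1) over 72 points, 9 gates in 8 pools, among 11373 genes; points of 1 gate share their cells and libraries, so the values are descriptive. For Il1a they were 4930430E12Rik (0.95), Csf3r (0.95), Clec4d (0.95), for Il1b Cd33 (0.97), Pilrb2 (0.97), Gpr35 (0.96), for Il1rn Cstb (0.89), Prdx5 (0.89), Atp6v0c (0.88) and for Il1r2 Ptafr (0.91), Mcemp1 (0.91), Ccr1 (0.90). Gate markers were left among the candidates. Csf3r and Clec4d are markers that set the neutrophil gate, so their peak in its points followed from the gating. For Il18 they were Guca1a (0.83), Zeb2os (0.81), Ftl1 (0.80) and for Il33 Insc (0.91), Tfap2a (0.90), Zfpm2 (0.89). For the receptors they were Sytl3 (0.96), Fasl (0.95), Wdr95 (0.95) with Il18r1, Lamb2 (0.92), Cyb561 (0.92), Ackr3 (0.91) with Il1r1 and Ptpn13 (0.71), Angptl2 (0.71), Aldoa (0.70) with Il1rl1, the loosest match of the 9.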

How the data were processed

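Single-cell 5′ RNA libraries were sequenced by the authors and aligned and counted with Cell Ranger 4.0.0 against mm10, per the file headers, the methods and the submitters' processing notes. The deposited values are raw UMI counts in 1 matrix of 32285 genes by 144994 barcodes over 16 libraries, without normalization. Each barcode carries a library number, which was matched to the number in the sample labels; that match is inferred. The cell limits of the study were applied. UMIs were summed by gate and by pool (both libraries of a treatment) or library, leaving out sums of fewer than 10 cells. Sums were tested over all genes with edgeR 4.0.16 (TMM, filterByExpr, quasi-likelihood test, Benjamini-Hochberg adjustment). A gene was called at an adjusted p below 0.05 and a log2 fold change above 0.5 in size, the size limit of the study. The study tested single cells. Here the pool is the unit, because cells are not replicates. Pairs of treatments are the exception, with the library as the unit, so their p-values hold no spread between pools. The vaccine and both antibodies were terms of 1 fit over 8 pools; pairs of treatments were fitted on 16 libraries with the preparation as a term; preparations were compared with the treatment as block, and subsets of a gate with the pool as block. Gates were compared by exact sign-flip tests over the 8 pools. DESeq2 1.42.0, other cell limits, stricter gates (4 markers), other libraries and leaving out each pool were the alternatives. No doublet caller was run. On simulated data the edgeR step recovered, of 200 genes changed 2-fold with PancVAX, 69.5% in neutrophils (8011 genes), 83.5% in macrophages (11796 genes) and 75.5% in T cells (11310 genes). The changed genes were drawn at random from all genes tested, so the recovery does not describe members with few UMIs. The members, gates and gene lists were chosen with earlier results of these data known. Named were the 9 members, called pathway genes (at most 5 a comparison, by adjusted p) and the 3 genes most like each member. The T cell receptor libraries were not used here.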

Additional observations from a re-analysis of the deposited data

Results flagged for a closer look

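Groups of 4 and 8 samples were searched for a highest or lowest sample that stood apart by Dixon's 95% limit; 10 of 120 groups had one, and chance gives about 1 in 20. The pool of PancVAX + Anti-PD-1 held 5 of them. Its whole tumor library was at 676.2 CPM of Il1a in Retnlg neutrophils, where the next library was at 277.2. In the tumor gate it was at 28.2 CPM of Il1r1, against 13.3 in the next pool with PancVAX. Its Il18r1 level was 149.9 CPM in Foxp3 T cells, against 88.5 in the next pool with PancVAX, and 180.9 CPM in other Cd4 T cells, against 149.5; in the whole tumor library alone the other Cd4 cells were at 218.9 CPM, against 152.4 in the next library. The PancVAX + Anti-CTLA-4 pool was at 81.6 CPM of Il33 in the tumor gate, against 45.5 in the next pool with PancVAX, and its whole tumor library at 82.0 CPM, against 55.3. The isotype control was at 26.9 CPM of Il18 in C1q macrophages, below the next pool at 29.4, and its Percoll library was at 10021 CPM of Il1b in Retnlg neutrophils, above the next at 7662. The Anti-PD-1 Percoll library was at 97.1 CPM of Il18 in Ccr2 macrophages, against 38.0 in the next.

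For 5 members most UMIs lay in barcodes above the upper cell limits, which the comparisons leave out: 82375 UMIs of Il1rn (36255 below), 21483 of Il1r1 (1796 below), 14532 of Il18 (3336 below), 42726 of Il1rl1 (1926 below) and 53878 of Il33 (4473 below). The PancVAX effect was set against the preparation in 35 tests of members and gates (exact permutation over 70 splits); 0 had an unadjusted p under 0.05.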

How the results depend on the processing

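For the 42 calls on single members and gate pairs, 540 alternatives were run: 389 kept direction and side of the threshold, 151 lost the call and 0 changed sign. The 151 losses include every called gate pair in each run with 1 pool left out. Those losses say nothing about stability, for the reason given below. Of 736 recomputed counts of called members, 683 stayed within 1.5 times. Without the upper cell limits 35 neighbouring gate pairs differed. With 1 pool left out 0 did (0 to 0). The smallest p that 7 pools can give passes over 72 pairs only if more pairs reach it than did here. So those runs say nothing about stability. Without the low-count filter the members called became 4 for PancVAX in macrophages, 2 in stromal, 3 in tumor and 1 in other Cd4 cells; 1 in stromal and 4 in tumor cells for anti-PD-1; 3 in tumor cells for anti-CTLA-4; 2 in macrophages and 2 in tumor cells for both antibodies added to PancVAX; 1 in stromal cells for PancVAX against the isotype control; and 1 each in tumor, T and Cd8 cells for Percoll. Cells under 5% mitochondrial gave 1 member in the tumor gate for anti-PD-1, 1 for anti-CTLA-4 and 1 in other Cd4 cells for PancVAX. DESeq2 gave 1 for PancVAX in macrophages and 1 for Foxp3 against other Cd4 cells. For PancVAX, Percoll libraries alone gave 1 in Cd8 and 1 in other Cd4 cells, and the 16 libraries with preparation as covariate 1 in other Cd4 cells. PancVAX against the isotype control gave 1 in stromal cells from only the 4 libraries compared, and 0 in T cells with no preparation covariate. With no upper limits Percoll gave 2 in tumor, 1 in Cd8 and 1 over all cells. The share of all genes called under each alternative is not given here. So these counts, and those with a pool or library left out below, cannot show whether a change was particular to the members. The causes were not tested.

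Leaving out a pool or library in turn gave 0 to 1 members for PancVAX in macrophages, 0 to 1 in the tumor gate and 2 to 6 in T cells (6 without the PancVAX pool); 0 to 1 in the tumor gate for anti-PD-1 (1 without the Anti-PD-1 or isotype control pool) and 0 to 1 for anti-CTLA-4 (1 without PancVAX + Anti-PD-1 + Anti-CTLA-4). Both antibodies added to PancVAX gave 0 to 1 in macrophages (1 without the whole tumor library of PancVAX) and 0 to 2 in the tumor gate (2 without the Percoll library with both antibodies). Percoll gave 1 to 2 in macrophages, 0 to 1 in the tumor gate, 0 to 1 in T cells and 0 to 1 in Cd8 cells (1 without PancVAX + Anti-PD-1). The log2 difference in the Il1rn to Il1b ratio with PancVAX in macrophages ran from 0.20 to 0.38, and passed only without the PancVAX + Anti-PD-1 + Anti-CTLA-4 pool. Among the gate pairs, Il18 of neutrophils over B cells was also lost in whole tumor libraries alone (0.46) and after thinning (1.45). Depth limits the low genes: mast, Ccr2 and Foxp3 sums hold few cells, and tests of Il1r1, Il1rl1 and Il18 rest on few UMIs.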
